A study of Mus musculus with 24 samples.

Results

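Adrb3, Ppargc1a, Prdm16, Cidea, Ucp1, Ucp2, Cox7a1 and Cox8b are genes of beta-adrenergic signalling and heat production in fat. They are picked out of the table by gene symbol, from a list drawn up with earlier results of these data known, and are 8 of the 16730 genes in the deposited count table. The study asked what deletion of laminin alpha 4 from adipocytes does to fat in male mice fed chow or a high-fat diet (HFD). RNA came from the epididymal white adipose tissue (eWAT, labelled gWAT) of 24 male mice of the strain labelled LFKO, with 6 mice in each of 4 groups. Both genotypes carry loxP sites around exon 3 of Lama4. The floxed mice without Cre (Lama4 fl/fl) are the controls, and the Lama4 AKO mice also carry Cre under the adiponectin promoter, which acts in adipocytes and leaves Lama4 in the other cells of the fat pad. Each genotype was fed chow (5015) or HFD with 45% fat for 20 weeks. The mice were adult littermates. In the study's figure legends chow feeding ran from weaning and ended at a younger age than HFD feeding. Diet contrasts are thus not matched for age, and the effects of age and diet cannot be told apart.

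Beta3-adrenergic receptors on fat cells receive noradrenaline from sympathetic nerves. Through a stimulatory G protein they raise cyclic AMP, which activates protein kinase A. This kinase starts lipolysis, and it induces the coactivator PGC-1alpha (Ppargc1a) and, in brown and beige adipocytes, uncoupling protein 1 (Ucp1), which lets protons back into the mitochondrial matrix so that the energy is released as heat. PRDM16 is a transcriptional regulator of brown and beige fat identity. Epididymal fat of the mouse is a white depot that is known for little browning, so Ucp1, Cidea and Cox8b are used here as brown-fat genes read out in a white depot.

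Cyclic AMP reaches genes through CREB, a factor known to bind the cyclic AMP response element TGACGTCA or its half-site TGACG. RefSeq promoter sequence of GRCm38.p6 was matched by symbol for 6 of the 8 members. In windows of 220 bases, from 250 to 31 bases before the start site, the half-site was found on either strand in 3 of these 6, and in 14.8% of all 32851 such windows. The full element was in none of the 6 and in 1.14% of all windows, and each full element also holds the half-site. The 3 windows with a half-site are shown because Ppargc1a and Ucp1 are the textbook cyclic AMP targets of the list and Ucp2 is the 1 member with groups that did not overlap in a contrast. Each reads 5′ to 3′ on the strand of its gene, with the half-site or its reverse complement in capitals.
Ppargc1a, reverse strand, chr5:51567756-51567975: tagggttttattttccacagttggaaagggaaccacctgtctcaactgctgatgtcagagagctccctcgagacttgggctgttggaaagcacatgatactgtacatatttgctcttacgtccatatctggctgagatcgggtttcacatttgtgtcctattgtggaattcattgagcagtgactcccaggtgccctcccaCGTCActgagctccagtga
Ucp1, forward strand, chr8:83290098-83290317: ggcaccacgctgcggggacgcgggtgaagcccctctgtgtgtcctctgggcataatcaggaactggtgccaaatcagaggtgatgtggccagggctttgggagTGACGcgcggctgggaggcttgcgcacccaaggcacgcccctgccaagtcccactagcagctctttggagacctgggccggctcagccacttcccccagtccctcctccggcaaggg
Ucp2, forward strand, chr7:100493108-100493327: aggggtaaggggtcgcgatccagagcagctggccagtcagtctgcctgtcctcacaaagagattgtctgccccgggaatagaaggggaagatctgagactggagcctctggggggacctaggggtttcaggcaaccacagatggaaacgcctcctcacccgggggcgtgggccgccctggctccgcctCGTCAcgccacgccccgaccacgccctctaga
The half-sites begin 49 bases (Ppargc1a), 147 bases (Ucp1) and 62 bases (Ucp2) before the start. A match is a description of letters and says nothing of binding.

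Library totals ranged from 5579590 to 18764516 counts. Levels are CPM, the counts scaled to library size with TMM factors, which are not divided by transcript length because each transcript gives tags at its 3′ end only. The adipocyte genes Adipoq (764 to 7896 CPM) and Plin1 (306 to 1511 CPM) were present in every library. The first principal component of all genes held 45.8% of the variance, and on it the HFD-fed Lama4 fl/fl libraries lay apart from each other: replicates 1, 2 and 5 at 48.2 to 73.5, and replicates 3, 4 and 6 at -76.1 to -9.88. Chow fl/fl replicate 1, at -91.8, and HFD AKO replicate 6, at 0.850, also lay apart from their groups (-22.1 to 46.8 and 47.2 to 61.5) and are among the 19 libraries of the second fit. Results are also given for 19 libraries, without chow-fed fl/fl replicate 3, chow-fed AKO replicate 5 and HFD-fed fl/fl replicates 3, 4 and 6. The study set outliers aside that its text does not name, and these 5 were inferred from these same data, so values from the 19 libraries are no independent evidence. Lama4 itself had medians of 91.6 CPM (chow fl/fl), 113 CPM (chow AKO), 78.6 CPM (HFD fl/fl) and 44.3 CPM (HFD AKO). Tags from the 3′ end would lie outside the deleted exon 3, so the level in the libraries labelled Lama4 AKO does not check the deletion. The positions of the tags were not examined. By quantitative PCR the study found Lama4 lower in eWAT of chow-fed Lama4 AKO mice than of controls. The chow medians here do not show that fall, and the reason was not tested.

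None of the 8 members was called in any of the 6 comparisons, where the criteria of the study for a call were applied to edgeR results: 2 CPM or more as the larger group mean, an unadjusted p of 0.001 or less, and a change of 1.5-fold or more. Of all 15020 genes tested, the calls were 0.173% for HFD against chow in Lama4 fl/fl, 4.12% for the same in Lama4 AKO, 0.173% for Lama4 AKO against fl/fl on HFD, 0.113% for that contrast on chow, 2.25% for diet over both genotypes and 0.386% for the interaction. At an unadjusted p under 0.05 the members numbered 0, 4, 4, 0, 3 and 0 in this order, beside 9.01%, 39.8%, 14.8%, 5.85%, 35.5% and 15.6% of all genes. The 4 members in the AKO diet comparison stand near the background of that comparison. RLE scaling, no TMM factors, limma-voom, DESeq2, no filter, fits of the compared groups only and the replicate block also called 0 members in each comparison they covered.

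**Figure D1:**
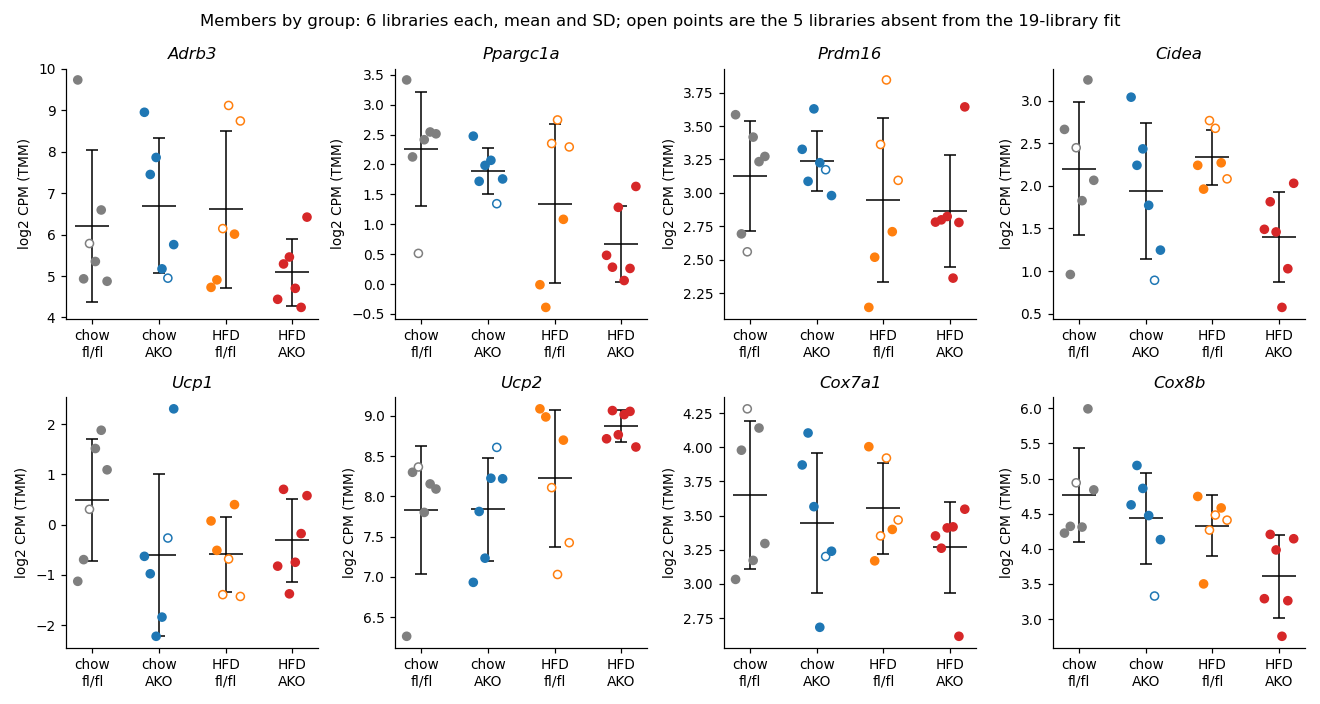
Each panel plots 1 gene, with log2 CPM (TMM-scaled) on the vertical axis and the 4 groups on the horizontal axis. Points are libraries (6 per group), bars are the mean and SD, and open points are the 5 libraries absent from the 19-library fit. Adrb3 ran from 18.8 to 848 CPM over all libraries, and the HFD-fed Lama4 AKO libraries all lay above the chow-fed Lama4 AKO libraries for Ucp2.

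Adrb3 (ENSMUSG00000031489, chromosome 8, 27225776 to 27250616, reverse strand) encodes the beta3-adrenergic receptor, the main beta receptor of mouse adipocytes. In chow-fed Lama4 fl/fl mice it had a lowest, median and highest level of 29.2, 47.8 and 848 CPM, and in chow-fed Lama4 AKO mice of 30.7, 114 and 494 CPM. In HFD-fed Lama4 fl/fl mice these were 26.3, 67.4 and 554 CPM, and in HFD-fed Lama4 AKO mice 18.8, 32.4 and 85.5 CPM. All groups overlapped, and some libraries were far above the rest of their group. These were chow fl/fl replicate 1 (848 CPM, the next at 96.3 CPM) and HFD fl/fl replicates 4 and 6 (554 and 427 CPM). In chow AKO, replicates 1, 3 and 2 were at 494, 232 and 175 CPM, and the rest at 30.7 to 53.9 CPM. The SD within groups, 1.60 on the log2 scale, was at the 99.3rd percentile of all genes tested, where the median gene had 0.42.

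Adrb3 was lower on HFD than on chow in Lama4 AKO, with a log2 difference of -2.12 (SE 0.93, adjusted p = 0.0938), and all 6 HFD-fed libraries lay below the chow-fed median. With each library left out this difference ranged from -2.52 to -1.43. Between Lama4 AKO and fl/fl on HFD the difference was -2.32 (SE 0.94, adjusted p = 0.295), with 5 of 6 libraries below the fl/fl median. The exact permutation tests on log2 CPM, run for 32 pairs of member and contrast and not adjusted, gave p = 0.0649 for the first contrast and p = 0.110 for the second, 2-sided. In 19 libraries the genotype difference on HFD was -0.04 (SE 0.95), and the diet difference in fl/fl changed from 0.09 (SE 0.89) to -2.38 (SE 1.08). On chow the genotypes differed by -0.10 (SE 0.89), and without chow fl/fl replicate 1 by 1.76. The same library left out gave 1.96 for diet in fl/fl, and leaving out HFD fl/fl replicate 4 gave -0.57. The interaction of diet and genotype had its lowest unadjusted p among the members for Adrb3, at -2.22 (SE 1.28, adjusted p = 0.378), and was 0.04 (SE 1.27) in 19 libraries.

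Ppargc1a (ENSMUSG00000029167, chromosome 5, 51454250 to 51567726, reverse strand) encodes the coactivator PGC-1alpha, which drives mitochondrial biogenesis. Its counts were low, 10 to 102 per library. The lowest, median and highest levels were 1.28, 5.37 and 10.5 CPM in chow fl/fl, 2.39, 3.52 and 5.41 CPM in chow AKO, 0.614, 3.36 and 6.55 CPM in HFD fl/fl, and 0.893, 1.16 and 2.95 CPM in HFD AKO. HFD-fed Lama4 AKO libraries were all below the chow-fed AKO median, although the groups overlapped at 2.39 to 2.95 CPM. HFD-fed fl/fl libraries lay on both sides, replicates 3, 4 and 6 between 4.75 and 6.55 CPM and replicates 1, 2 and 5 between 0.614 and 1.97 CPM.

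For HFD against chow in Lama4 AKO, Ppargc1a had a log2 difference of -1.22 (SE 0.50, adjusted p = 0.0757), with p = 0.00433 in the exact permutation test of log2 CPM. In Lama4 fl/fl the difference was -0.72 (SE 0.48, adjusted p = 0.666), and over both genotypes it was -0.97 (SE 0.34, adjusted p = 0.0600). In 19 libraries Ppargc1a was called by edgeR in fl/fl (-2.43, SE 0.45, adjusted p = 0.000992) and over both genotypes (-1.87, SE 0.29, adjusted p = 4.88e-05), where 11.8% and 21.4% of all genes were called. Its difference between genotypes on HFD was -1.03 (SE 0.50) with all libraries and turned to 0.47 (SE 0.43) in 19 libraries. On chow the genotypes differed by -0.54 (SE 0.47, adjusted p = 0.952).

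Prdm16 (ENSMUSG00000039410, chromosome 4, 154316125 to 154636873, reverse strand) encodes the regulator that holds brown and beige adipocytes in their fate. It was steady beside Ppargc1a: its SD within groups was 0.44 log2, against 0.90 for Ppargc1a, and the 24 libraries spanned 4.28 to 14.2 CPM. The group medians were 9.39 CPM in chow fl/fl, 9.04 CPM in chow AKO, 7.39 CPM in HFD fl/fl and 6.77 CPM in HFD AKO, and all groups overlapped. Its diet difference was -0.12 (SE 0.25) in fl/fl and -0.34 (SE 0.25) in Lama4 AKO, and neither passed the test (adjusted p = 0.906 and 0.321). In 19 libraries the value in fl/fl was -0.81 (SE 0.26, adjusted p = 0.0268), not past the unadjusted p of 0.001 that a call required.

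Ucp1 (ENSMUSG00000031710, chromosome 8, 83290352 to 83298452, forward strand) encodes the proton carrier of thermogenic adipocytes and was close to the limit of detection in this depot. All 24 libraries together held 359 counts, between 1 and 71 each. It was below 10 counts in 15 libraries and below 1 CPM in 16 libraries. The lowest, median and highest levels were 0.309, 1.53 and 3.52 CPM in chow fl/fl, 0.0657, 0.428 and 4.78 CPM in chow AKO, 0.223, 0.513 and 1.17 CPM in HFD fl/fl, and 0.236, 0.591 and 1.48 CPM in HFD AKO. In chow-fed AKO mice replicate 6 alone held 71 counts, and the other 5 held between 0.0657 and 0.683 CPM.

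For Ucp1 the diet difference was -1.49 (SE 0.75, adjusted p = 0.571) in Lama4 fl/fl, where all 6 HFD-fed libraries lay below the chow-fed median, and -0.51 (SE 0.77, adjusted p = 0.637) in Lama4 AKO. The genotype difference was 0.36 (SE 0.78) on HFD and -0.62 (SE 0.73) on chow. None of these differences could be told from 0 beside the spread between mice and the low counts. Without chow AKO replicate 6 the diet difference of Ucp1 in Lama4 AKO turned from -0.51 to 1.26.

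Ucp2 (ENSMUSG00000033685, chromosome 7, 100493337 to 100502020, forward strand) encodes a mitochondrial carrier related to UCP1 that is abundant in immune cells and is not a brown-fat marker. Its lowest, median and highest levels were 76.6, 279 and 330 CPM in chow fl/fl, 122, 261 and 390 CPM in chow AKO, 131, 346 and 544 CPM in HFD fl/fl, and 392, 477 and 536 CPM in HFD AKO. All 6 HFD-fed Lama4 AKO libraries lay above all 6 chow-fed AKO libraries, by 391.7 CPM at the lowest against 390.4 CPM at the highest. Groups without overlap in this contrast were also seen in 6.86% of all genes tested. In HFD-fed fl/fl mice the libraries again lay apart, with replicates 3, 4 and 6 at 131 to 276 CPM and replicates 1, 2 and 5 at 416 to 544 CPM.

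Ucp2 was higher on HFD than on chow by 0.93 log2 (SE 0.34) in Lama4 AKO (adjusted p = 0.0528), and the exact permutation test gave p = 0.00216, the smallest that 6 against 6 libraries allow. In fl/fl the difference was 0.45 (SE 0.34, adjusted p = 0.708), and over both genotypes 0.69 (SE 0.24, adjusted p = 0.0587). In 19 libraries Ucp2 was called over both genotypes (1.08, SE 0.22, adjusted p = 0.000547), with 1.06 (SE 0.33) in fl/fl and 1.11 (SE 0.29) in AKO. The genotypes differed by 0.47 (SE 0.34) on HFD and by -0.02 (SE 0.34) on chow, and in 19 libraries the value on HFD was -0.05 (SE 0.33).

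Cidea (ENSMUSG00000024526, chromosome 18, forward strand) encodes a lipid droplet protein that marks brown and beige adipocytes. It held 10 to 164 counts per library. The lowest, median and highest levels were 1.796, 4.67 and 9.32 CPM in chow fl/fl, 1.71, 3.92 and 8.08 CPM in chow AKO, 3.75, 4.63 and 6.65 CPM in HFD fl/fl, and 1.34, 2.63 and 3.93 CPM in HFD AKO. The HFD-fed AKO libraries were all below the HFD-fed fl/fl median, and 1 of them (3.93 CPM) overlapped the lowest of that group (3.75 CPM).

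On HFD, Cidea was lower in Lama4 AKO than in fl/fl by a log2 difference of -0.92 (SE 0.36, adjusted p = 0.294), and the exact permutation test of log2 CPM gave p = 0.00433. Groups without overlap were seen in 0.533% of all genes in this contrast, and no member was among them. In 19 libraries the difference was -0.71 (SE 0.43, adjusted p = 0.584). The diet difference was -0.01 (SE 0.35) in fl/fl and -0.68 (SE 0.36, adjusted p = 0.159) in AKO. On chow the genotypes differed by -0.24 (SE 0.35), and by 0.035 without chow fl/fl replicate 5, the library with the highest level.

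Cox7a1 and Cox8b encode subunits of cytochrome c oxidase, the last enzyme of the respiratory chain, in the isoforms typical of muscle and brown fat, while Cox7a2 and Cox8a are the isoforms found in most tissues. Cox7a1 (ENSMUSG00000074218, chromosome 7, 30184144 to 30186078, forward strand) ranged from 5.98 to 19.3 CPM over all libraries, and its SD within groups of 0.44 log2 was close to that of the median gene. Its group medians were 12.6 CPM (chow fl/fl), 10.5 CPM (chow AKO), 10.7 CPM (HFD fl/fl) and 10.3 CPM (HFD AKO), with all groups overlapping. The largest of its differences in the 4 contrasts of groups was -0.29 (SE 0.25), between genotypes on HFD, and none passed the test (adjusted p from 0.508 to 0.962).

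Cox8b (ENSMUSG00000025488, chromosome 7, 140898945 to 140900446, reverse strand) had lowest, median and highest levels of 18.5, 24.2 and 63.5 CPM in chow fl/fl, 9.90, 23.3 and 36.3 CPM in chow AKO, 11.2, 21.6 and 26.7 CPM in HFD fl/fl, and 6.61, 12.7 and 18.3 CPM in HFD AKO. HFD-fed AKO libraries were all below the medians of chow-fed AKO and of HFD-fed fl/fl libraries, but overlapped both groups. The diet difference in Lama4 AKO was -0.85 (SE 0.32, adjusted p = 0.0588), and the exact permutation test gave p = 0.0476. Between genotypes on HFD it was -0.68 (SE 0.32, adjusted p = 0.331), with p = 0.0411 in the exact permutation test.

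Over both genotypes Cox8b was lower on HFD, with a log2 difference of -0.70 (SE 0.23, adjusted p = 0.0469). It was the 1 member at an adjusted p of at most 0.05 with edgeR, beside 12.4% of all genes in that comparison, and its unadjusted p of 0.00527 did not reach the 0.001 of a call. The count of such members over both genotypes was 0 with no TMM factors and 0 with the replicate block, 3 with DESeq2 and 5 in 19 libraries. In the AKO diet comparison 0 members reached an adjusted p of 0.05 with edgeR, where 22.1% of all genes did, and 3 did with DESeq2, 4 with the compared groups only and 4 in 19 libraries. In 19 libraries the genotype difference of Cox8b on HFD was -0.67 (SE 0.39), close to its value with all libraries. Of the remaining contrasts of groups, no member was without overlap for diet in fl/fl or for genotype on chow, beside 0.213% and 0.260% of all genes.

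**Figure D2:**
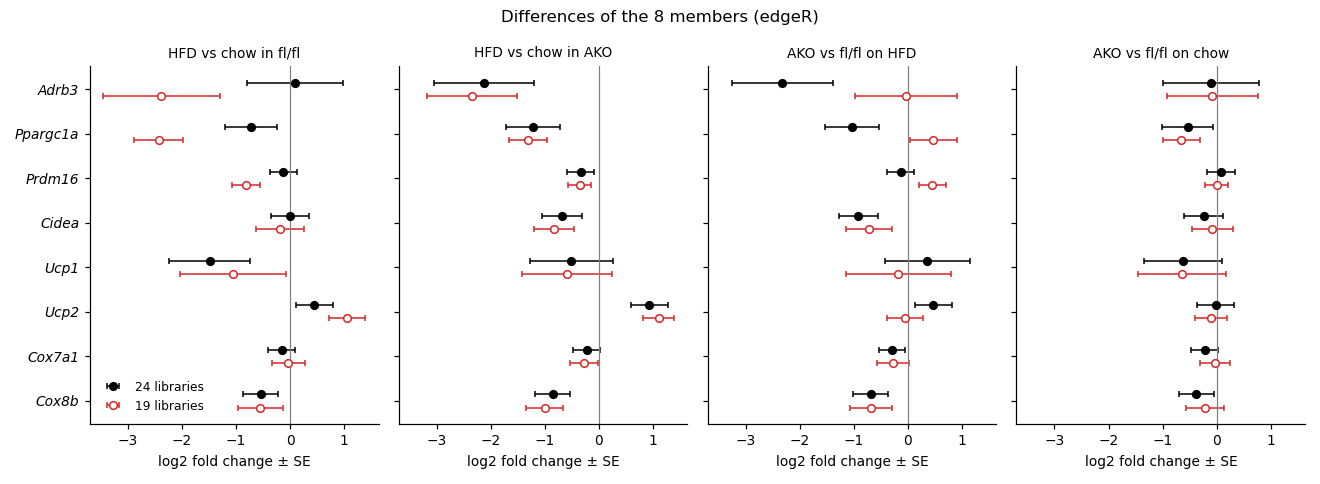
The horizontal axis is the log2 fold change and bars are its SE, for 8 members in 4 comparisons. Filled points come from all 24 libraries and open points from 19. For HFD against chow in Lama4 fl/fl, Ppargc1a moved from -0.72 to -2.43 and Adrb3 from 0.09 to -2.38 when 5 libraries were left out, and on HFD the genotype values of Adrb3 (-2.32 and -0.04) and Ppargc1a (-1.03 and 0.47) came apart in the same way.

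The share of each tissue-restricted subunit within its isoform pair, a measure chosen after the values were seen, does not depend on the scaling of the library. Cox8b made up 5.69% ± 3.30 (SD, n = 6) of the counts of Cox8b and Cox8a in chow fl/fl, 5.26% ± 1.56 in chow AKO, 5.13% ± 2.37 in HFD fl/fl and 3.34% ± 1.52 in HFD AKO. Cox7a1 made up 2.10% ± 0.517, 2.67% ± 0.393, 3.07% ± 1.23 and 2.61% ± 0.684 of the counts of Cox7a1 and Cox7a2 in the same order. The highest share in a single library was 12.1%, for Cox8b in chow fl/fl. Of 8 exact permutation tests, the lowest p was 0.0628, for Cox7a1 between genotypes on chow, and the lowest adjusted over the 8 was 0.214, so no difference in the shares passed the test at this number of libraries.

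**Figure D3:**
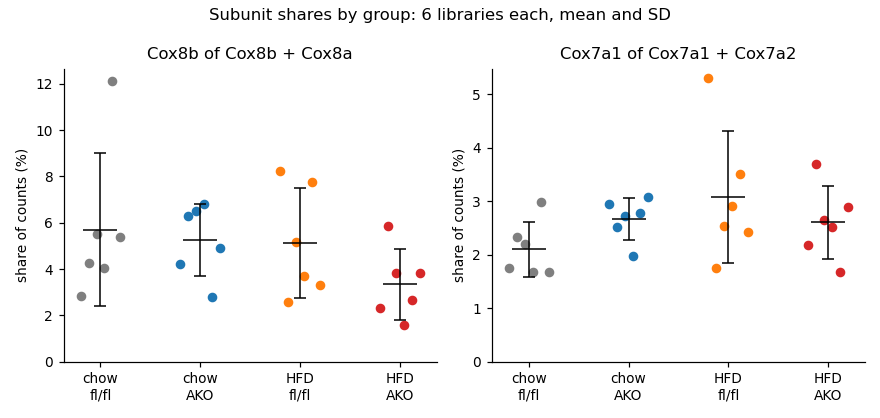
The vertical axes give the percent of counts from Cox8b within Cox8b and Cox8a (left) and from Cox7a1 within Cox7a1 and Cox7a2 (right), in 4 groups of 6 libraries, with mean and SD. The groups overlap in both panels, and the means lie between 3.34% and 5.69% for Cox8b and between 2.10% and 3.07% for Cox7a1.

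Marker lists of the cell types in the fat pad moved with several of these differences. In the AKO diet comparison all 8 adipocyte markers were lower (median log2 difference -1.34), 8 of 8 at an unadjusted p under 0.05, beside 39.8% of all genes. Of 8 macrophage markers, 7 were higher (median 1.06), 4 of them at an unadjusted p under 0.05. Cd163 was lower, at -1.02 (SE 0.35, adjusted p = 0.0436), and Mrc1 was level, at 0.01 (SE 0.21). The median over all genes was -0.00. On HFD the adipocyte list had a median of -1.02 and the macrophage list of 0.40 between genotypes. There 7 of 8 macrophage markers were higher in AKO, 0 of them at an unadjusted p under 0.05, beside 14.8% of all genes. Cd163 was lower, at an unadjusted p under 0.05. In HFD fl/fl the summed macrophage level was 2032 to 5531 CPM in replicates 3, 4 and 6. It was 6516 to 11343 CPM in replicates 1, 2 and 5. The study reports less inflammatory infiltrate in AKO than control eWAT by microscopy, and several lower immune pathways in AKO on HFD. Its pathway result was computed after outliers were removed, whereas the marker values here come from all libraries. Replicates 3, 4 and 6 of HFD fl/fl are among the libraries inferred above as outliers. The other HFD fl/fl libraries, at 6516 to 11343 CPM, lay within the HFD AKO range of 6274 to 11849 CPM. No test of the macrophage list without these replicates is given here. The summed adipocyte level ranged from 19554 to 51530 CPM in chow fl/fl and from 14893 to 41153 CPM in chow AKO. On HFD it ranged from 9000 to 46847 CPM in fl/fl and from 8470 to 24099 CPM in AKO. In the same order the summed macrophage level was 1412 to 9784, 2013 to 7657, 2032 to 11343 and 6274 to 11849 CPM. The macrophage medians were 6789, 3589, 6023 and 8583 CPM. In bulk tissue, fewer cells of a type and less RNA per cell cannot be told apart. The part of these shifts in the values of the members was not tested.

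Of 12 muscle markers, 8 were in the count table. Their summed level was 54.6 to 87.8 CPM in HFD AKO and 71.8 to 138 CPM in chow AKO. Over all libraries Myl1 was at 19.4 to 74.2 CPM, Acta1 at 5.66 to 74.6 CPM and Des at 10.4 to 31.6 CPM. The fast myosin Myh2 did not exceed 0.703 CPM, Tnnt3 1.02 CPM and Mylpf 1.58 CPM. Of 10 further brown adipocyte markers 8 were in the count table. Their sum changed little between group medians, from 85.0 CPM in HFD AKO to 112 CPM in chow AKO. Among them Slc27a2 had no count in 6 libraries and Lhx8 in 7, while Kcnk3, a potassium channel, gave 27.0 to 88.6 CPM. Of 10 epididymis and testis markers 2 were in the count table, and Lcn5 was at 0 in 20 libraries and Adam7 in 17. In the AKO diet comparison the medians of the other lists were -0.73 for 6 endothelial, -1.44 for 6 mesothelial and 0.50 for 6 adipocyte progenitor genes. They were -0.27 for 3 blood genes and 1.37 for 2 sympathetic nerve genes (Npy and Slc6a2). Of 5 listed sympathetic nerve markers only these 2 were in the count table, and Slc6a2 lay at 0.559 to 2.41 CPM.

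The members also varied together within groups. After the group mean of each gene was subtracted, relations over the 24 libraries were tested with 100000 permutations within groups, for 60 pairs of members or of a member with a marker list. Adrb3 and Ucp2 ran in opposite directions, with Pearson's r = -0.93 (permutation p = 1e-05, the smallest these permutations can give, adjusted p = 6.67e-05) and Spearman's rho = -0.83 (permutation p = 6e-05). Without the 2 libraries farthest from the median of Adrb3, r was -0.87. Within single groups of 6 libraries r lay between -0.98 and -0.57.

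Ppargc1a and Prdm16 varied together over libraries, with r = 0.85 (permutation p = 1e-05, adjusted p = 6.67e-05), rho = 0.86 (permutation p = 1e-05), r = 0.86 without the 2 farthest libraries and 0.42 to 0.91 within groups. Ucp2 ran opposite to Ppargc1a as well, with r = -0.77 (permutation p = 0.00077, adjusted p = 0.00231, rho = -0.75 with permutation p = 0.00044, r = -0.78 without the 2 farthest), and to Prdm16, with r = -0.73 (permutation p = 7e-05, adjusted p = 0.0003, rho = -0.74 with permutation p = 0.0005, r = -0.70 without the 2 farthest). Adrb3 went with Ppargc1a at r = 0.68 (permutation p = 0.00291, adjusted p = 0.00727, rho = 0.61 with permutation p = 0.00324, r = 0.57 without the 2 farthest), with Prdm16 at r = 0.64 (permutation p = 0.0013, adjusted p = 0.00355, rho = 0.56 with permutation p = 0.0105, r = 0.52 without the 2 farthest) and with Cidea at r = 0.61 (permutation p = 0.00321, adjusted p = 0.0077, rho = 0.70 with permutation p = 0.00055, r = 0.63 without the 2 farthest).

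The brown-fat genes Cidea and Cox8b varied together too, with r = 0.72 (permutation p = 0.00057, adjusted p = 0.0018), rho = 0.68 (permutation p = 0.00123), r = 0.78 without the 2 farthest and 0.37 to 0.91 within groups. For Cox7a1 and Cox8b r was 0.54 (permutation p = 0.0155, adjusted p = 0.032), rho 0.61 (permutation p = 0.00317), r 0.59 without the 2 farthest and 0.28 to 0.72 within groups. Ucp1 had no relation with another member past an adjusted p of 0.05, and its r with Cidea was -0.04 (permutation p = 0.883).

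The same members followed the marker lists. Ucp2 went with the summed macrophage markers, r = 0.96 (permutation p = 1e-05, adjusted p = 6.67e-05, rho = 0.89 with permutation p = 1e-05, r = 0.93 without the 2 farthest, 0.71 to 0.99 within groups). Adrb3 followed the adipocyte list, r = 0.84 (permutation p = 1e-05, adjusted p = 6.67e-05, rho = 0.81 with permutation p = 3e-05, r = 0.83 without the 2 farthest, 0.75 to 0.97 within groups). Ppargc1a followed the adipocyte list too, with r = 0.85 (permutation p = 1e-05, adjusted p = 6.67e-05, rho = 0.85 with permutation p = 1e-05, r = 0.86 without the 2 farthest, 0.69 to 0.94 within groups). For Prdm16 and this list r was 0.84 (permutation p = 1e-05, adjusted p = 6.67e-05, rho = 0.83 with permutation p = 3e-05, r = 0.77 without the 2 farthest, 0.54 to 0.94 within groups). Cox8b and Cox7a1 had no relation with the adipocyte list past an adjusted p of 0.05 (r = 0.36 and 0.15, permutation p = 0.0812 and 0.477). Adrb3 also ran opposite to the macrophage list, with r = -0.90 (permutation p = 2e-05, adjusted p = 0.00012, rho = -0.77 with permutation p = 0.00018, r = -0.82 without the 2 farthest, -0.99 to -0.82 within groups). Ucp2 ran opposite to the adipocyte list, with r = -0.86 (permutation p = 1e-05, adjusted p = 6.67e-05, rho = -0.89 with permutation p = 2e-05, r = -0.87 without the 2 farthest, -0.99 to -0.83 within groups). Ppargc1a and Prdm16 were opposite to the macrophage list at r = -0.79 and -0.74 (permutation p = 0.00023 and 1e-05, adjusted p = 0.000812 and 6.67e-05, rho = -0.76 and -0.74 with permutation p = 0.00021 and 0.0002, r = -0.77 and -0.71 without the 2 farthest). The muscle list ran with Adrb3 as well, with r = 0.90 (permutation p = 1e-05, adjusted p = 6.67e-05, rho = 0.80 with permutation p = 9e-05, r = 0.86 without the 2 farthest, 0.74 to 0.96 within groups). Cidea went with the adipocyte list at r = 0.56 and with the muscle list at r = 0.70 (permutation, adjusted p = 0.0036 and 0.003). With the list of other brown adipocyte markers, r was 0.74 for Adrb3, 0.73 for Ppargc1a, 0.84 for Prdm16 and 0.68 for Cidea. For Ucp2 it was -0.71 (permutation, adjusted p of at most 0.00173 for each of these members). Ucp1, Cox7a1 and Cox8b had no relation with that list past an adjusted p of 0.05. The list is a sum in which Kcnk3 and Ebf2 weigh most (medians of 38.3 and 28.7 CPM over all libraries). Elovl3, Slc27a2 and Lhx8 had medians of 0.986, 0.173 and 0.184 CPM. Dio2 was lowest, at 1.03 CPM, in chow fl/fl replicate 1, where Adrb3 was highest. The markers of this list were not tested singly against the members. All of these values share the same libraries and scaling.

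**Figure D4:**
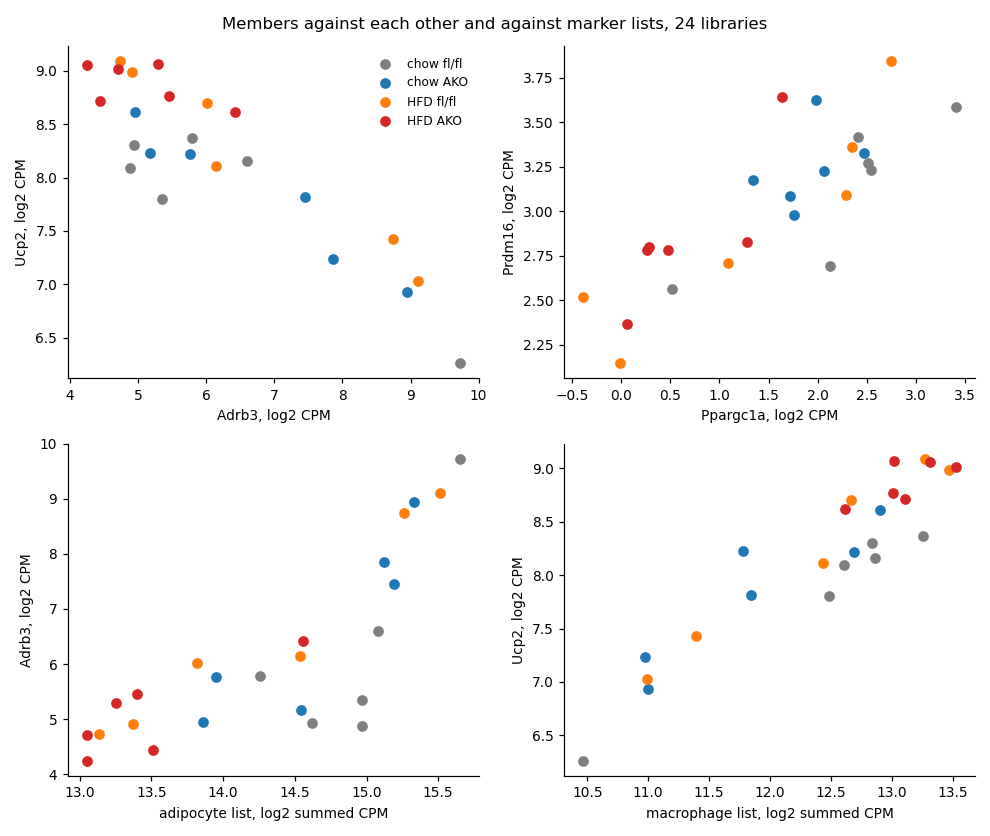
Each point is 1 of 24 libraries, coloured by group, and both axes are on the log2 CPM scale. Ucp2 is low where Adrb3 is high (r = -0.93 after the group means are subtracted), Prdm16 is high where Ppargc1a is high (r = 0.85), and Adrb3 goes with the summed adipocyte markers (r = 0.84) and Ucp2 with the summed macrophage markers (r = 0.96).

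**Figure D5:**
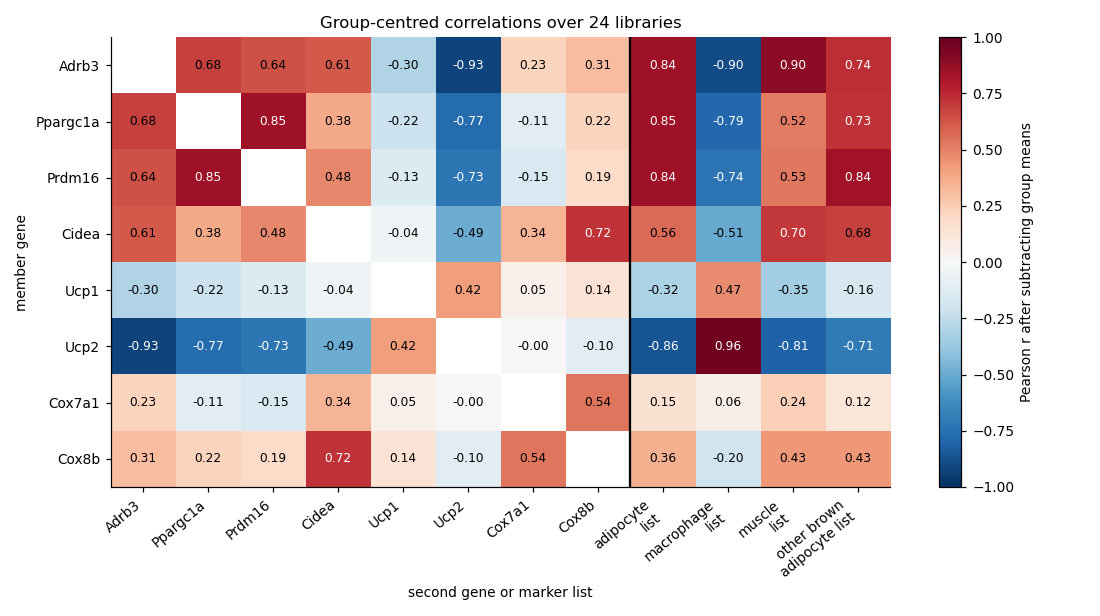
Rows are the 8 members, columns the 8 members and 4 marker lists, and each cell gives Pearson's r over 24 libraries after group means are subtracted, from blue (negative) to red (positive). Ucp2 is negative with Adrb3 (-0.93), Ppargc1a (-0.77) and Prdm16 (-0.73), and Ucp1 has no value beyond 0.47 in size.

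The genes whose group-centred log2 CPM was most like that of each member over the 24 libraries were, as a description, Irs3 (r = 0.97), Slc1a3 and Cyp2e1 for Adrb3, and Arl11 (r = 0.99), Nckap1l and Tpd52 for Ucp2. Irs3 is an insulin receptor substrate of rodent adipocytes, and Nckap1l is a cytoskeletal regulator of blood cells. For Ppargc1a they were Jcad (r = 0.95), Cc2d2a and Nfib, and for Prdm16 Lmo7 (r = 0.93), Nfib and Cdh13, so Nfib stood among the 3 closest genes of both. For Cidea they were Acsm5 (r = 0.85), Adh1 and Tppp. For Cox8b they were Mal2 (r = 0.83), Fancb and 1700056E22Rik, and for Cox7a1 Mrpl42 (r = 0.84), Cox6c and Ndufc1, which encode a mitochondrial ribosomal protein and 2 respiratory chain subunits. For Ucp1 the highest was Tox3 (r = 0.72), itself at a mean of 0.393 CPM.

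Other genes of the pathway were listed by function, 113 of 120 were in the count table and 106 were tested. Of these, 1 was called higher and 2 lower in the AKO diet comparison, beside the 4.12% of all genes, and 15 higher and 25 lower genes had an unadjusted p under 0.05, beside 39.8% of all genes. With edgeR 0 were called in each of the other 5 comparisons, where 7 (diet in fl/fl, beside 9.01% of all genes), 21 (genotype on HFD, 14.8%), 8 (genotype on chow, 5.85%), 34 (diet over both genotypes, 35.5%) and 21 (interaction, 15.6%) had an unadjusted p under 0.05. The share of pathway genes in the AKO diet comparison was thus near that of all genes. The median log2 difference of the 106 in the AKO diet comparison was -0.08, against -0.60 for the 8 members and -0.00 for all genes.

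Among 35 tested genes of receptors and adrenergic signalling, the 1 called gene was Prkar2a, a regulatory subunit of protein kinase A. It fell by 0.89 log2 (SE 0.19, adjusted p = 0.0124) on HFD in Lama4 AKO, where 4.12% of all genes were called. Its median went from 129 to 70.2 CPM with no overlap between groups, as was seen for 6.86% of all genes tested. The regulatory subunit Prkar2b, which predominates in adipocytes, was also lower (-1.298, SE 0.40, adjusted p = 0.0299), as was Pde3b, a phosphodiesterase that breaks down cyclic AMP in adipocytes (-1.11, SE 0.40, adjusted p = 0.0475). Prkar1a, another regulatory subunit, was higher by 0.50 (SE 0.12, adjusted p = 0.0153), and so was the adenylate cyclase Adcy3 (1.10, SE 0.35, adjusted p = 0.0329). These 4 were not called, because their unadjusted p or their fold change missed the criterion. Of the 35 genes, 3 higher and 4 lower ones had an adjusted p of at most 0.05 in this comparison, near the 22.1% of all genes. Adrb1, the beta1-adrenergic receptor, had group medians of 1.99 to 5.21 CPM, and its diet difference in Lama4 AKO was -0.70 (SE 0.42, adjusted p = 0.205). Adra2a, the inhibitory alpha2 receptor, had group medians of 1.08 to 1.13 CPM.

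Of 30 tested thermogenic regulators none was called in any comparison (edgeR), and 5 higher and 7 lower ones had an unadjusted p under 0.05 in the AKO diet comparison, a share near the 39.8% of all genes. Ppargc1b, the close relative of Ppargc1a, had group medians of 8.32 to 10.8 CPM and a diet difference of -0.12 in Lama4 AKO (SE 0.24, adjusted p = 0.734). Pparg, the master regulator of adipocytes, had medians of 89.4 to 116 CPM with -0.43 in the same contrast (adjusted p = 0.540). Ebf2, a brown adipocyte selector, was level, with medians of 27.4 to 29.7 CPM and 0.01 in that contrast (adjusted p = 0.986). Among regulators at an adjusted p of at most 0.05 in the AKO diet comparison (2 higher and 5 lower of 30, near the 22.1% of all genes), the fatty acid sensor Ppara had a difference of -1.95 (SE 0.68, adjusted p = 0.0441) and the corepressor Nrip1 of -1.21 (SE 0.40, adjusted p = 0.0362).

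Of 28 tested thermogenic effectors, Elovl6, a fatty acid elongase, fell by 1.36 (SE 0.36, adjusted p = 0.0201) and Acot2, a mitochondrial acyl-CoA thioesterase, rose by 1.03 (SE 0.27, adjusted p = 0.0207) on HFD in Lama4 AKO. Median levels went from 32.9 to 9.89 CPM for Elovl6 and from 22.2 to 58.7 CPM for Acot2. Of the 28, 1 was called higher and 1 lower in this comparison, beside 4.12% of all genes. At an unadjusted p under 0.05 there were 3 higher and 8 lower ones, near the 39.8% of all genes. At an adjusted p of at most 0.05 there were 2 higher and 2 lower ones, beside 22.1% of all genes. Ucp3, the uncoupling protein best known from muscle, was at medians of 5.19 to 12.05 CPM and differed by -1.15 in that contrast (adjusted p = 0.0516). Dio2, the deiodinase that activates thyroid hormone in brown fat, differed by 0.06 (adjusted p = 0.904), and Elovl3, an elongase of activated brown fat, had no count in 2 libraries and medians of 0.492 to 1.01 CPM. The 13 other subunits of cytochrome c oxidase gave 0 calls in each comparison (edgeR). At an unadjusted p under 0.05 they numbered 2, 2, 2, 5, 1 and 4 in the order used for the members. The shares of all genes in this order were 9.01%, 39.8%, 14.8%, 5.85%, 35.5% and 15.6%. On chow, 12 of the 13 were lower in Lama4 AKO than in fl/fl (median -0.29), 5 of them at an unadjusted p under 0.05, beside 5.85% of all genes. Cox7a2, the partner of Cox7a1 in the subunit share, was among these 5, at -0.55 (SE 0.21, adjusted p = 0.794). Cox7a2, Cox8a and Cox7a2l differed by -0.15, -0.12 and 0.31 in the AKO diet comparison (adjusted p = 0.603, 0.678 and 0.309).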

How the data were processed

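RNA from eWAT of 24 male mice was made into 3′ QuantSeq libraries. The authors deposited raw counts per gene, and a second table of normalized values (a signal on a count-like scale, per the file headers, used here for gene symbols only). The submitters' processing notes name GRCm38, R 4.0.3 and DESeq2 1.30, the study's methods name the QuantSeq pipeline, Rsubread for the count matrices and limma-voom, and the aligner's settings are not given in the sources used here. Groups came from the sample labels, and p-values measure the spread between mice.

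The members and lists were chosen with earlier results of these data known. Counts of all 16730 genes were filtered to at least 1 CPM in at least 3 libraries (15020 genes), scaled by TMM and fitted over all 24 libraries with 1 coefficient per group (edgeR 4.0.16 quasi-likelihood, R 4.3.3). Adjusted p-values are Benjamini-Hochberg over the genes tested, and log2 CPM used a prior count of 2. Named genes are the 8 members, the called pathway genes, relatives of the members and the 3 most alike genes per member. A further gene on the list of relatives is not reported here. The 4 pathway genes at an adjusted p under 0.05 named under signalling, and Ppara and Nrip1, were chosen after their values were seen. Exact permutation tests (scipy 1.17.1) were 2-sided. Alternatives used RLE, no TMM factors, limma-voom (limma 3.58.1), DESeq2 1.42.0, no filter, the compared groups only, the replicate number as a block, 19 libraries, each library left out and other call criteria. The scripts were tested on simulated data. Totals of 5579590 to 18764516 counts leave Ucp1 at 1 to 71 counts per library, where counting error is large.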

Additional observations from a re-analysis of the deposited data

Results flagged for a closer look

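In 4 of the 32 combinations of member and group, 1 library lay farther from the other 5 than the 95% limit of Dixon's gap test for 6 samples allows. Chance flags about 1 in 20 groups. Adrb3 in chow fl/fl replicate 1 was at 9.73 log2 CPM (848 CPM, gap 0.646 of the range). In the same library Ucp2 was low, at 6.26 log2 CPM (76.6 CPM, gap 0.732). Prdm16 in HFD AKO replicate 6 was at 3.64 log2 CPM (12.3 CPM, gap 0.640), and Cox7a1 in HFD AKO replicate 5 was at 2.62 log2 CPM (5.98 CPM, gap 0.693).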

How the results depend on the processing

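The count of members called stayed at 0 in each comparison under RLE, no TMM factors, limma-voom, DESeq2, no filter, the compared groups only, the replicate block and each library left out. In 19 libraries it was 1 for diet in fl/fl and 2 for diet over both genotypes. With an unadjusted p of at most 0.05 in the criterion it was 4 (diet in AKO), 4 (genotype on HFD) and 3 (diet over both), and with an adjusted p of at most 0.05 it was 1 (diet over both). Low counts limit Ucp1, Ppargc1a and Cidea most.

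Same-numbered libraries did not pair: 15 of 36 pairs had a correlation of deviations above 0.1 (-0.53 to 0.71). With the replicate block 0 members were called, and the calls over all genes went from 26, 619, 26, 17, 338 and 58 to 19, 457, 19, 10, 254 and 32.

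Pathway genes called for diet in fl/fl (0) became 1 with RLE, no TMM, limma-voom or DESeq2, 11 in 19 libraries and 4 with an unadjusted p of 0.05 (0 to 1 with a library left out). For diet in AKO (3) they became 6 with DESeq2, 10 with the compared groups only, 14 in 19 libraries, 14 with an adjusted and 24 with an unadjusted p of 0.05 (1 to 4 with a library left out). For genotype on HFD (0) they became 1 in 19 libraries and 10 with an unadjusted p (0 to 1), and for genotype on chow (0) 2 with DESeq2, 1 with no filter, 1 in 19 libraries and 4 with an unadjusted p (0 to 3). For diet over both (0) they became 1 with limma-voom, DESeq2 or an adjusted p, 20 in 19 libraries and 12 with an unadjusted p (0 to 1), and for the interaction (0) 2 with DESeq2, 1 in 19 libraries and 14 with an unadjusted p (0 to 1).

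Signs of log2 differences turned as follows, none of them called, and the cause was not tested. In 19 libraries Adrb3 for diet in fl/fl was -2.38, for genotype on HFD Ppargc1a was 0.47, Prdm16 0.45, Ucp1 -0.18 and Ucp2 -0.051, for genotype on chow Prdm16 was -0.000499, and for the interaction Adrb3 was 0.038, Ppargc1a 1.13 and Prdm16 0.45. Cidea for diet in fl/fl was 0.0128 with RLE and with DESeq2, 0.065 with no TMM, 0.11 with limma-voom, 0.0134 with no filter, 0.028 with the compared groups only and 0.045 with the block. Ucp1 for diet in AKO was 0.55 with limma-voom and 0.041 with the block, and for genotype on chow Adrb3 was 0.46 with limma-voom and 0.34 with the block, and Ucp2 0.077 with no TMM and 0.052 with limma-voom. Exact permutation tests on CPM in place of log2 CPM turned the sign for Adrb3 (genotype on chow, p = 0.924), Cidea (diet in fl/fl, p = 0.996), Ucp1 (diet in AKO, p = 0.937) and Ucp2 (genotype on chow, p = 0.948).

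With each library left out, ranges that crossed 0 were, for diet in fl/fl, Adrb3 -0.57 to 1.96, Prdm16 -0.35 to 0.010 and Cidea -0.18 to 0.27, for diet in AKO Ucp1 -0.81 to 1.26, for genotype on HFD Prdm16 -0.35 to 0.10, for genotype on chow Adrb3 -0.80 to 1.76, Prdm16 -0.015 to 0.18, Cidea -0.54 to 0.035 and Ucp2 -0.20 to 0.12, and for the interaction Prdm16 -0.44 to 0.013 and Cox7a1 -0.21 to 0.082. Differences in subunit share ranged from -1.18 to 0.73 percentage points (Cox8b, diet in fl/fl), -1.003 to 0.86 (Cox8b, genotype on chow) and -0.28 to 0.12 (Cox7a1, diet in AKO).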
